A study of Mus musculus with 15 samples.

Results

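The 7 globin genes expressed in mouse red cells, Hbb-y, Hbb-bh1, Hbb-bs and Hbb-bt of the beta family and Hba-x, Hba-a1 and Hba-a2 of the alpha family, were followed across every transcript library of the series. They were chosen by name and are 7 of 30534 measured features. Frozen sections of embryos taken on embryonic day 10 (E10), 11 (E11) or 12 (E12) had been measured by DBiT-seq, in which barcodes flow over a section through parallel channels in crossed directions, so that each crossing is a pixel. There were 3 libraries of E10 with 50 µm pixels, 1 of E10 with 25 µm, 2 of E10 with 10 µm, 2 of E11 with 25 µm, 2 of E11 with 10 µm and 1 of E12 with 50 µm, and 4 of the E10 sections also had counts for 22 antibodies. No treatment or genotype was labelled, and the strain, the embryo and the part of the embryo in a section were not given, so stage cannot be told apart from section and region. E12 and E10 at 25 µm had no replicate, and nothing in the labels says that replicates came from separate embryos, so p-values measure the spread between these sections only.

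Tissue pixels numbered 829 to 2271 per library and held 1563489 to 11998765 counts. At least 1 globin count was found in 99.4% to 100% of the tissue pixels of each library. Levels are given as CPM, the counts of a gene per 1000000 counts in the tissue pixels of its library. A higher summed level can come from more red cells in a section or from more globin RNA per cell, which cannot be told apart in these sums.

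Haemoglobin is a tetramer of alpha-type and beta-type chains, each holding a haem group. In the mouse, primitive red cells arise in the yolk sac and circulate in the early embryo. They make mainly the embryonic chains, from Hba-x (zeta), Hbb-y (epsilon-y) and Hbb-bh1 (beta-h1), together with adult alpha chains from Hba-a1 and Hba-a2. Definitive red cells then mature in the fetal liver around macrophages and make the adult chains, including those of Hbb-bs and Hbb-bt. Klf1, Gata1, Bcl11a and Sox6 are among the transcription factors known to act on this switch.

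The beta genes lie on the minus strand of mouse chromosome 7 (build GRCm38, GENCODE M21), with Hbb-y at 103851749 to 103853216, Hbb-bh1 at 103841637 to 103843164, Hbb-bs at 103826534 to 103828096 and Hbb-bt at 103812524 to 103813996. The alpha genes lie on the plus strand of chromosome 11, with Hba-x at 32276400 to 32278116, Hba-a1 at 32283511 to 32284465 and Hba-a2 at 32296489 to 32297298. All 7 are annotated as protein-coding. Each cluster runs from its embryonic to its adult genes in the direction of transcription. Of the transcript's windows of 100 bases, 56.5% in Hba-a1 occur in Hba-a2 and 74.5% in the reverse direction, and 62.6% in Hbb-bs occur in Hbb-bt and 54.8% in the reverse direction. No window was shared by any other pair. The split of counts within each of these pairs therefore depends on counting rules not given in the sources used here, and single-gene values of Hba-a1, Hba-a2, Hbb-bs and Hbb-bt are uncertain to that extent.

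The promoter table of RefSeq (GRCm38.p6) held 6 of the 7 genes. The 120 bases before the RefSeq start of 5 of them are shown, to set embryonic beside adult genes of both families. Hba-a2, a near-identical copy of Hba-a1, is left out. Capitals mark CACCC, the core bound by factors of the Klf1 type, and CCAAT, a general promoter element, on either strand (the reverse strand reads as GGGTG and ATTGG). The genes are written 5′ to 3′ on their own strand, from chr7:103853208-103853327 (minus), chr11:32276480-32276599 (plus), chr11:32283552-32283671 (plus), chr7:103827929-103828048 (minus) and chr7:103813924-103814043 (minus), in the order below.
Hbb-y: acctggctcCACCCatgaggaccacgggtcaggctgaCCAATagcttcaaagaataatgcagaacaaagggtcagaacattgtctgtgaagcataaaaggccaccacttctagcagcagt
Hba-x: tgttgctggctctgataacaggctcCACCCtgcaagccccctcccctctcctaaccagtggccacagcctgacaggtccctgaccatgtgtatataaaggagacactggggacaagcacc
Hba-a1: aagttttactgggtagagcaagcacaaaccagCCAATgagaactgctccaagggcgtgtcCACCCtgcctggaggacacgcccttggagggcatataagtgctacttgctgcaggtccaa
Hbb-bs: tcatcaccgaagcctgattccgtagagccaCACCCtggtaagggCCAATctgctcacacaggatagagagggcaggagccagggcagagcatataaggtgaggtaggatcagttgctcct
Hbb-bt: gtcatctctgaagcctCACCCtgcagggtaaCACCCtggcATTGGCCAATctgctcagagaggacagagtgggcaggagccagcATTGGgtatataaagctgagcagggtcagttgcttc

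CACCC was found in all 6 genes of the table (Hba-a2 included) and, on either strand, in 31.7% of the 32851 promoters searched over the same 120 bases. It was added to the search after these sequences were read. CCAAT was found in 5 of 6 genes, all but Hba-x, and in 21.3% of promoters. Hbb-bt was the gene with the most matches, with CACCC at 104 and 89 bases before the start and CCAAT at 75 bases before it on its own strand and at 80 and 36 bases on the reverse strand. Hbb-bs had 1 of each, with CACCC at 90 and CCAAT at 76 bases before the start. The longer motif CCNCNCCC, which overlaps CACCC in Hbb-bs and Hbb-bt, was found in 3 of 6 genes and 34.6% of promoters. ATAAA was found in 3 of 6 (Hba-x, Hbb-y and Hbb-bt) and 20.2%. Of the GATA-type letters, TGATAA was found in Hba-x alone and in 3.55% of promoters, and AGATAA in no member and in 4.36%. A match describes these letters and is not a bound site.

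Within globin counts, Hbb-y made up the largest share at E10 and E11, with 34.5% to 38.7% in the 6 E10 libraries and 37.2% to 41.9% in the 4 E11 libraries. At E12 its share was 18.2%. Hba-x took 17.7% to 20.1% at E10, 13.2% to 18.8% at E11 and 2.84% at E12. Hbb-bh1 took 6.89% to 13.4%, 5.43% to 7.89% and 0.268%. All 3 embryonic genes thus had their lowest share at E12. The adult alpha genes were already abundant at E10, where Hba-a1 held 14.7% to 20.5% and Hba-a2 13.4% to 16.6% of globin counts. At E11 they held 18.5% to 21.1% and 15.5% to 18.4%, and at E12 35.8% and 23.6%. The adult beta genes were minor before E12. Hbb-bs held 0.388% to 0.920% at E10 and 0.803% to 1.10% at E11, against 9.97% at E12. Hbb-bt held 1.08% to 1.75%, 0.649% to 0.846% and 9.35%. Scaling per base of transcript assumes that counts rise with transcript length, which was not tested. So scaled, Hbb-y remained the most abundant at E10 (35.6% to 40.0% of length-scaled globin) and Hba-a1 at E12 (32.9%). The stacked plot of shares shows the E12 library apart from the other 10.

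**Figure D1:**
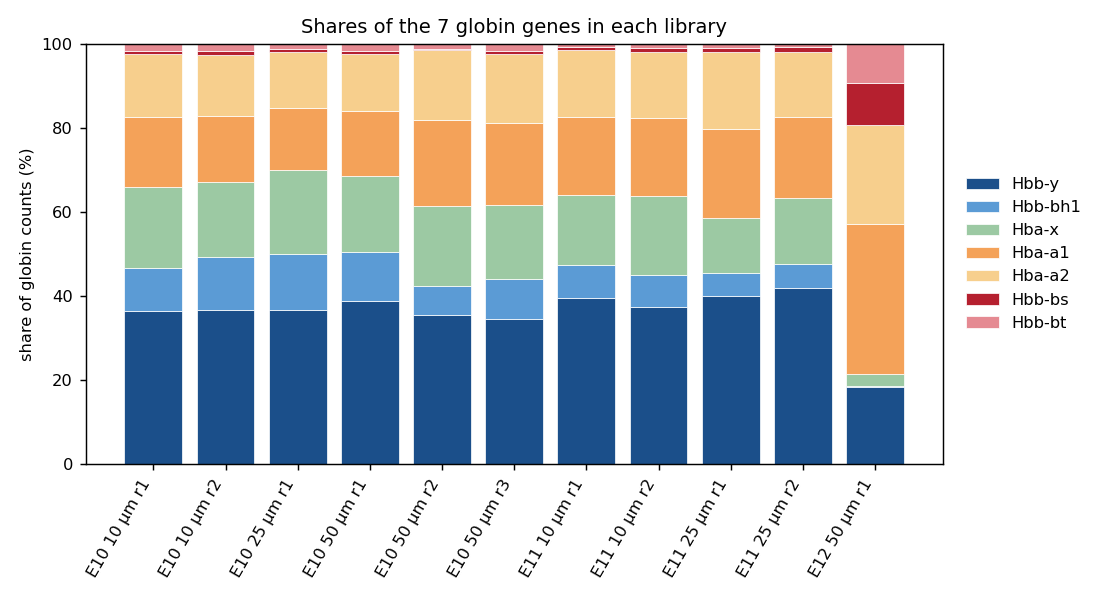
Share of each of the 7 globin genes in the globin counts of tissue pixels (y axis, %), 1 bar per library (r, replicate). Hbb-y has the largest share in the 10 bars of E10 and E11, while at E12 the adult genes Hba-a1, Hba-a2, Hbb-bs and Hbb-bt together made up 78.7% of globin counts.

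The sum of all globins was 1.65% to 3.27% of counts at E10, 1.49% to 2.20% at E11 and 8.94% at E12. Whether single genes differed between E11 and E10 was tested at the pixel widths the stages share, 10 and 25 µm. Of 18233 genes tested, 3.60% were called at an adjusted p of at most 0.05 (edgeR's quasi-likelihood test, Benjamini-Hochberg adjusted over all genes), and 2 of the 7 globins were among them. Both were lower at E11, as were 1.67% of all genes.

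Hbb-bh1, an embryonic beta gene, had 1560 CPM at its lowest in the 6 E10 libraries, a median of 2794 and at most 3388. At E11 it had 1598.5 and 1722 CPM with 10 µm pixels and 1111 and 839.9 CPM with 25 µm pixels. The 3 E10 libraries of the same widths, at 2723 to 3388 CPM, were all above the 4 of E11, while the lowest E10 library at 50 µm lay among them. The change was 2.14-fold lower at E11 (log2 -1.10, SE 0.28, edgeR adjusted p = 0.0486). Hbb-bt, an adult beta gene, ran from 258 CPM through a median of 369 to 566 CPM at E10, and stood at 131 and 186 CPM (10 µm) and 172 and 123 CPM (25 µm) at E11. All 4 E11 libraries were below all 6 of E10. The change was 2.13-fold lower (log2 -1.09, SE 0.27, edgeR adjusted p = 0.0458). Both calls are close to the threshold. Under 10 fits that each left out 1 of the libraries, no globin was called in 9, and Hbb-bt alone was called in the 1 without E12. In these fits the edgeR adjusted p ran from 0.0521 to 0.109 for Hbb-bh1 and from 0.0436 to 0.117 for Hbb-bt, with log2 changes of -1.22 to -0.98 and -1.25 to -0.93. No globin was called with relative log expression factors in place of TMM.

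The other 5 genes did not pass the test between E11 and E10. Hbb-y, the most abundant, ran from 5690 CPM through a median of 9136 to 11899.8 CPM at E10 and had 7978, 8196, 8179 and 6244 CPM at E11 (2 libraries of 10 µm, then 2 of 25 µm, as in the values that follow). The E11 values all lay within the E10 range. Hba-x ran from 2913 CPM through 4391 to 6272 CPM at E10 and had 3379, 4137, 2693 and 2337 CPM at E11, so the E11 libraries at 25 µm were below every E10 library. Hba-a1 ran from 2996 CPM through 3760.4 to 6526 CPM at E10 and had 3789, 4066, 4306 and 2904 CPM at E11. Hba-a2 ran from 2708 CPM through 3404 to 5288 CPM and had 3224, 3495, 3762 and 2304 CPM. For both adult alpha genes the stages overlapped. Hbb-bs ran from 110.3 CPM through 154 to 215 CPM at E10 and had 163, 222, 225 and 152 CPM at E11, also overlapping. The log2 changes of these 5 were -0.47 for Hba-x, 0.14 for Hba-a1, 0.04 for Hba-a2, -0.08 for Hbb-y and 0.41 for Hbb-bs, with adjusted p of 0.378 to 0.967. At 10 µm alone Hbb-bt was the 1 globin called (log2 -1.60, adjusted p = 0.0295, 3.33% of all genes called). At 25 µm alone none was called (0.455% of genes), with 1 at an unadjusted p under 0.05 by edgeR and none called by DESeq2. In the test of the difference between the change at 10 µm and that at 25 µm, no globin was called by edgeR or DESeq2 and none had an unadjusted p under 0.05 (0.137% of all genes were called by edgeR). Pixel width was compared within a stage in the same way. Between 10 and 50 µm at E10 no globin was called (0.11% of genes), and between 10 and 25 µm at E11 none was called (2.07% of genes), with none at an unadjusted p under 0.05 by edgeR and 1 by DESeq2 in each, none of them called.

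**Figure D2:**
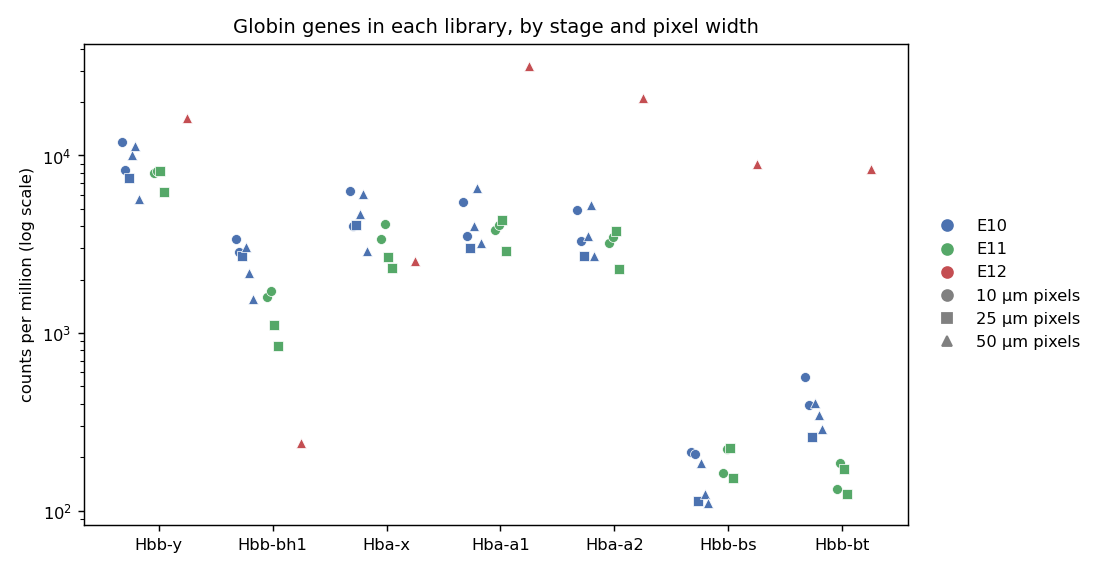
CPM of each globin gene (y axis, log scale), 1 point per library, with colour for stage and symbol for pixel width. The E12 library lies far above the rest for Hba-a1, Hba-a2, Hbb-bs and Hbb-bt and far below for Hbb-bh1, and the 4 E11 libraries lie below the 6 of E10 for Hbb-bt.

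Hbb-bs and Hbb-bt, near-identical neighbours, were in a different ratio at each stage, a pattern seen after the values were known and given without a test. Hbb-bs counts were 0.359 to 0.527 of Hbb-bt counts in the 6 E10 libraries, 1.19 to 1.31 times them in the 4 of E11 and 1.07 times them at E12. The E10 range lay below 1 and the E11 range above it, and the summed share of the pair in beta counts overlapped between these stages. The ratio of Hba-a1 to Hba-a2 was 1.07 to 1.23 at E10, 1.14 to 1.26 at E11 and 1.52 at E12.

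At E12 the 4 adult genes were higher than in the 3 E10 libraries of the same pixel width, and Hbb-bh1 was lower. Here 5 of 7 globins were called, against 2.14% of the 18233 genes (1.93% as higher), with the single E12 library assumed to vary like the other groups. Hbb-bs had 8909.6 CPM at E12 against 110.3 to 185 CPM at E10 50 µm, a 62.3-fold difference (log2 5.96, edgeR adjusted p = 2.27e-05). Hbb-bt had 8355 CPM, 23.5-fold higher (log2 4.56, edgeR adjusted p = 4.45e-05). Hba-a1 had 31970.3 CPM and was 6.68-fold higher (edgeR adjusted p = 0.0075), and Hba-a2 had 21094 CPM and was 5.27-fold higher (edgeR adjusted p = 0.0158). Hbb-bh1 had 239.7 CPM, 9.72-fold lower (log2 -3.28, edgeR adjusted p = 0.0059). The remaining embryonic genes did not pass, with Hbb-y at 16281 CPM (log2 0.80, edgeR adjusted p = 0.441) and Hba-x at 2542 CPM (log2 -0.90, edgeR adjusted p = 0.441). The 3 embryonic genes therefore did not move together, as Hbb-y had its highest level of any library at E12 while Hbb-bh1 had its lowest. Without E10 50 µm replicate 1 or replicate 3, Hba-a2 no longer passed (edgeR adjusted p = 0.0626 and 0.0744).

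Ratios between the genes compare them within the same pixels. The adult genes made up 3.36% to 5.19% of beta-globin counts at E10 and 2.98% to 4.10% at E11, against 51.1% at E12. They made up 58.3% to 67.0% of alpha-globin counts at E10, 64.6% to 74.98% at E11 and 95.4% at E12. In the 3 E10 and 4 E11 libraries of shared width, the log2 ratio of adult to embryonic beta counts averaged -4.43 ± 0.31 (SD, n = 3) and -4.71 ± 0.21 (SD, n = 4). The stages overlapped over both widths (difference -0.29, two-sided exact permutation p = 0.229). The sign differed by width, with -0.56 within 10 µm and 0.16 within 25 µm, where E10 had 1 library. Within each width the stages did not overlap. The same ratio for alpha averaged 0.66 ± 0.15 (SD, n = 3) and 1.17 ± 0.30 (SD, n = 4), higher in all 4 E11 libraries (difference 0.51, exact permutation p = 0.0571). Hbb-y exceeded Hbb-bh1 by 2.74 to 5.14 times at E10 and 4.76 to 7.43 times at E11. Over the shared widths the log2 ratio of the pair was 0.99 higher at E11, a 1.98-fold difference without overlap (exact permutation p = 0.0286, the smallest that 3 against 4 libraries allow). It was 0.62 higher within 10 µm and 1.43 higher within 25 µm. The ratio of all alpha to all beta counts differed by 0.17 on the log2 scale (exact permutation p = 0.0857). None of the 4 ratios passed after Benjamini-Hochberg adjustment over the 4 (adjusted p = 0.114 for alpha, for Hbb-y to Hbb-bh1 and for alpha to beta, and 0.229 for beta).

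The E12 ratios lay outside the range of all other libraries, and with 1 library they were not tested. Against the mean of the 6 E10 libraries the adult to embryonic ratio was 23.1-fold higher for beta and 12.2-fold higher for alpha, and Hbb-y to Hbb-bh1 was 19.6-fold higher. Against the 4 E11 libraries, which share no pixel width with E12, these folds were 27.4, 9.30 and 11.3. Alpha exceeded beta counts 1.65-fold at E12, against 0.894 to 1.29 at E10 and 1.03 to 1.13 at E11.

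**Figure D3:**
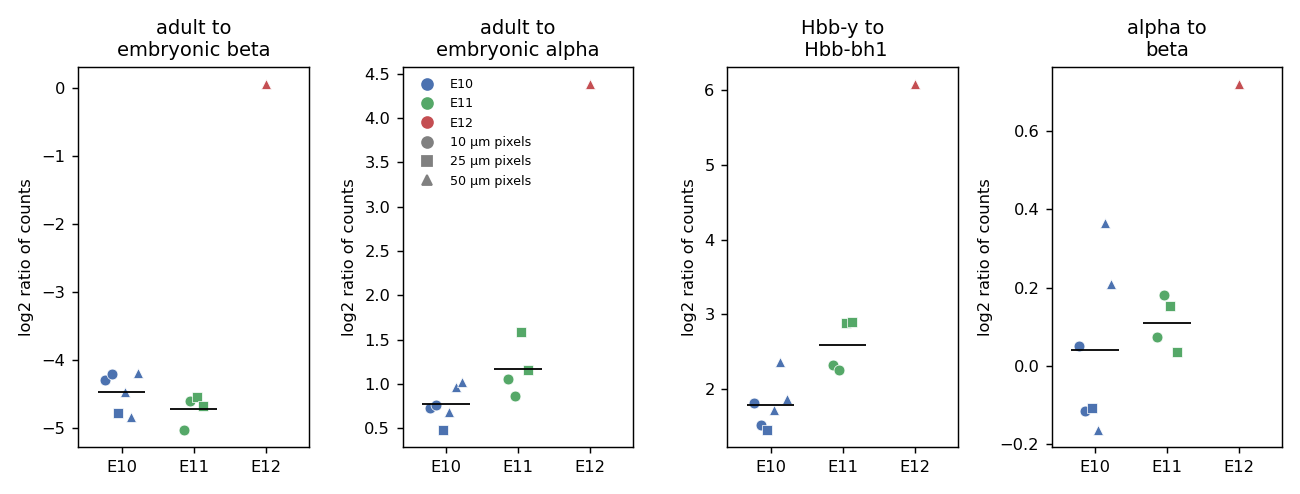
Log2 ratios of counts (y axis) by stage, 1 point per library, with symbols for pixel width and a line at the mean where a stage has more than 1 library. E12 lies above all other libraries in each panel, and Hbb-y to Hbb-bh1 is higher in the 4 E11 libraries than in the 3 E10 libraries with 10 or 25 µm pixels.

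To ask where in a section adult globin was found, pixels rich in liver RNA were marked by Afp, Alb and Apoa1, which code for proteins secreted by liver cells. A pixel was called liver-gene-rich where these made up at least 20 of 10000 non-globin counts over a window of 3 by 3 pixels. No such pixel was found in the 6 E10 libraries, where Alb had at most 13 counts, or in E11 10 µm replicate 1. There were 578 in E11 10 µm replicate 2 (29.9% of tissue pixels), 145 and 135 in the E11 25 µm libraries and 450 at E12 (29.3%). Apoa1 and Afp are also made in the yolk sac and gut, so the marker genes alone do not set liver apart from these.

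At E12 adult beta globin made up a larger share in the liver-gene-rich pixels than elsewhere in the section. The adult genes made up 71.6% of beta counts there (95% exact Clopper-Pearson interval 71.3% to 71.8%) and 29.0% in the other pixels (28.7% to 29.2%). These intervals treat each count as independent and are too narrow where reads share a source molecule. They do not cover the spread between sections. Per 10000 non-globin counts, Hbb-bs stood at 251 in liver-gene-rich and 37.3 in other pixels (6.73-fold), and Hbb-bt at 236 and 34.8 (6.76-fold). Hba-a1 stood at 721 and 205 (3.52-fold), and Hba-a2 at 472 and 137 (3.45-fold). The embryonic genes were nearly level between the same pixels, with Hbb-y at 190.1 and 174 (1.09-fold), Hba-x at 29.3 and 27.4 (1.07-fold) and Hbb-bh1 at 3.02 and 2.48 (1.22-fold). The adult share of alpha counts was 97.6% and 92.6%. Among other pixels, the 108 richest in globin had 2460.2 globin counts per 10000, above the 1597.6 of liver-gene-rich pixels, and an adult beta share of 24.0%. Abundant globin outside the liver-gene-rich area thus had the lower adult share.

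The adult share of beta counts at E12 was higher in each bin of higher liver score. It was 23.4% in pixels with under 1 liver-gene count per 10000, then 27.1%, 31.7%, 39.6% and 64.9% in the bins from 1, 5, 20 and 50, and 88.9% in the 153 pixels with 100 to 200 (bins of fewer than 20 pixels were left out). In pixels with at least 20 beta-globin counts each, the median adult share was 64.5% in 444 liver-gene-rich pixels and 31.0% in 982 others, and adult counts exceeded embryonic ones in 63.3% and 8.66% of them. Outside the liver-gene-rich area the share was 31.4% within 50 to 112 µm of channel width and 28.5% at 141 to 269 µm. At larger distances it was 28.9% at 283 to 522 µm and 25.6% beyond.

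**Figure D4:**
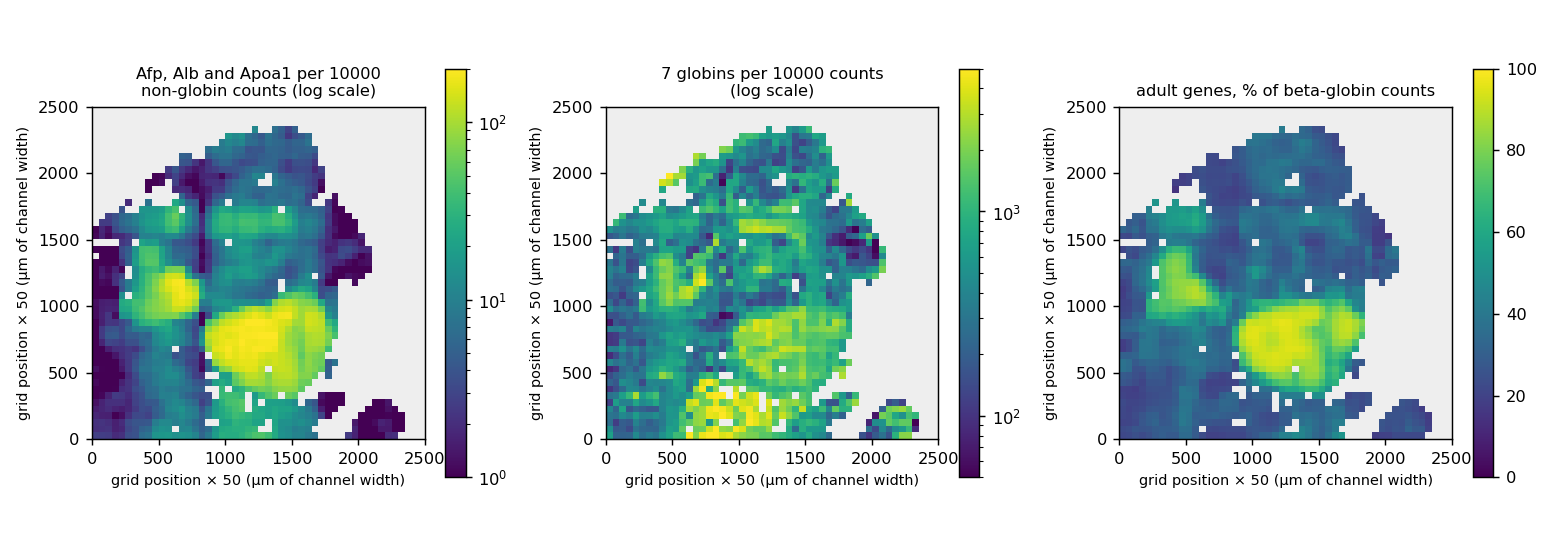
The E12 section, 1 square per 50 µm tissue pixel, coloured by liver-gene score, by globin counts and by the adult share of beta-globin counts over a 3 by 3 window; axes are grid positions times the channel width and grey is no tissue. The 450 liver-gene-rich pixels form a large and a smaller area in which the adult share is high, while the lower edge of the section is rich in globin with a low adult share.

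At E11 the same comparison gave small differences of differing sign. In E11 10 µm replicate 2 the adult share of beta counts was 5.08% in liver-gene-rich pixels (95% exact interval 4.67% to 5.52%) and 3.30% in others (3.04% to 3.57%). In E11 25 µm replicate 1 it was 3.21% (2.84% to 3.61%) and 4.29% (4.09% to 4.49%), so the lower value was in the liver-gene-rich pixels. In E11 25 µm replicate 2 it was 3.82% (3.45% to 4.22%) and 3.73% (3.56% to 3.90%). The log2 differences of the adult to embryonic beta ratio were 0.65, -0.43 and 0.04, against 2.63 at E12, a 6.18-fold difference. For alpha they were 0.06, -0.20 and -0.04, against 1.71 at E12. Over the 4 libraries the mean for beta was 0.72 ± 1.35 (SD, n = 4), higher in 3 of 4 (two-sided exact permutation by sign flips, p = 0.375, where 4 libraries cannot go below 0.125). The means were 0.38 for alpha (p = 0.75, exact), -0.01 for Hbb-y to Hbb-bh1 (p = 0.875, exact) and -0.002 for alpha to beta (p = 1, exact), and adjusted p was 1 for all 4. Without E12 the mean for beta was 0.0858 and that for alpha turned to -0.06.

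In counts summed per library and set of pixels, no globin was called between liver-gene-rich and other pixels by edgeR or DESeq2, and none had an unadjusted p under 0.05, although 22.3% of 11536 genes were called by edgeR. The fitted changes of Hbb-bs and Hbb-bt were 1.05 and 0.99 (log2; edgeR adjusted p = 0.348 and 0.389). Without E11 10 µm replicate 2, the 3 embryonic genes were called as higher (log2 0.55 for Hba-x, 0.59 for Hbb-y and 0.60 for Hbb-bh1). In that library 6 of 7 globins were 1.24-fold to 1.799-fold lower per non-globin count in liver-gene-rich pixels and Hbb-bs was level. Its liver-gene-rich pixels held a median of 2071 non-globin counts against 835.5 in others. The medians were 4250 against 2394 in E11 25 µm replicate 1, 4947 against 4100 in replicate 2 and 2966.5 against 3293 at E12. The part of this depth in the globin values was not tested. Macrophage and megakaryocyte genes stood at 4.45 to 12.2 per 10000 in liver-gene-rich pixels against 1.06 to 2.95 in others of the 4 libraries, and their part in the globin values was not tested. Red cell genes other than globins stood at 27.5 against 3.51 per 10000 at E12 but at 3.34 against 3.48, 3.75 against 2.501 and 3.70 against 2.34 at E11.

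**Figure D5:**
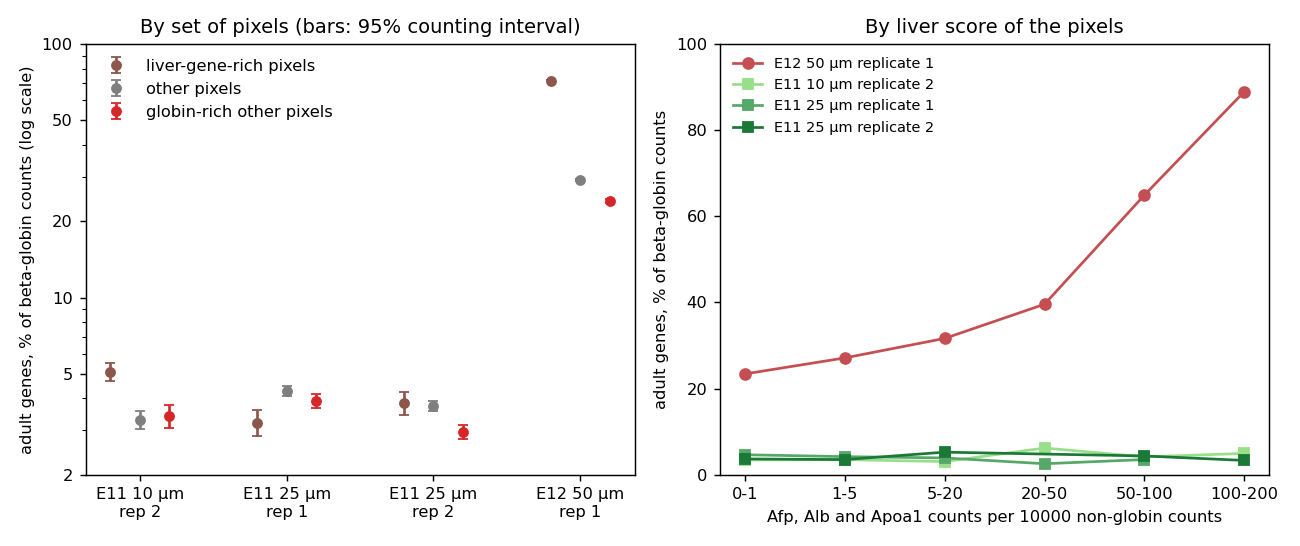
Adult genes as a share of beta-globin counts, on the left by set of pixels in 4 libraries (log y axis, bars are 95% exact counting intervals) and on the right by the liver-gene score of the pixels. The E12 library runs from 23.4% to 88.9% with the score, while the 3 E11 libraries lie between 2.57% and 6.21% in all bins.

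Between the stages, adult beta globin was also higher outside the liver-gene-rich pixels. The adult share of beta counts in globin-rich other pixels was 3.40%, 3.92% and 2.95% in the 3 E11 libraries and 24.0% at E12. With liver-gene-rich pixels left out, the adult share at E12 was 29.0%, still above the 2.98% to 4.29% of the 4 E11 libraries measured the same way.

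The globins were not spread evenly over the other tissues. Pixels were ranked by the counts of marker lists and the richest 10% of each library were compared with the rest over all 11 libraries (two-sided exact permutation by sign flips, adjusted over 7 lists, smallest raw p 0.000977). Pixels rich in endothelial genes such as Pecam1 and Cdh5, of the cells that line blood vessels, had 2.25-fold more globin per 10000 counts. This share, used for every list here, was higher in 11 of 11 libraries (adjusted p = 0.00342, exact). Pixels rich in neural progenitor genes such as Sox2 and Pax6 had 0.504 times as much, lower in all 11 libraries (adjusted p = 0.00342, exact). Pixels rich in macrophage and megakaryocyte genes had 1.78-fold more in 10 of 11 libraries (adjusted p = 0.00456, exact), and 50% to 87.0% of them were also liver-gene-rich in the 4 libraries with such pixels. Heart muscle, neuron, epithelium and mesenchyme lists did not pass (adjusted p = 0.120 to 0.241, exact). For heart muscle the log2 difference ran from -0.50 to -0.01 in the E10 libraries and from -0.34 to 1.77 in the later ones. This split by stage was not tested. The heart muscle-rich pixels held 0.88 list counts per 10000 in E10 10 µm replicate 2 and 457 in E11 25 µm replicate 1, so some held little heart RNA. With liver-gene-rich pixels left out, the log2 differences were 1.24, -0.94 and 0.80 for the 3 lists that passed. Median counts per pixel also differed from the rest. For endothelium they ranged from 1461.5 against 2721.5 (E11 25 µm replicate 1) to 3560.5 against 3560 (E12). For neural progenitors they ranged from 823 against 1194 (E11 10 µm replicate 2) to 4597.5 against 2299 (E11 25 µm replicate 1). The part of this depth in the globin shares was not tested.

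The adult to embryonic beta ratio passed for none of the 7 lists over the 11 libraries (adjusted p = 0.243 to 0.906, exact). It was highest against the rest for the macrophage and megakaryocyte list (mean log2 0.31 ± 0.95 SD, n = 11), a mean that rested on E12, and without E12 it was 0.04. At E12 the adult share of beta counts was 83.8% in pixels rich in that list, 133 of 154 of which were liver-gene-rich. It was 55.4% in epithelium-rich pixels, 34.1% in neural progenitor-rich, 33.5% in neuron-rich, 30.2% in endothelium-rich, 27.6% in heart muscle-rich and 26.3% in mesenchyme-rich pixels. Of the 154 pixels of each list, 51 of the epithelium-rich, 34 of the endothelium-rich, 29 of the neuron-rich, 26 of the heart muscle-rich, 20 of the neural progenitor-rich and 1 of the mesenchyme-rich were also liver-gene-rich. The part of these pixels in the adult shares was not tested. These are descriptions of 1 section.

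Pixel by pixel, the globins followed one another, which is described without a test since pixels share a library and depth. At E12 (1535 pixels, log2 scale) Pearson's r was 0.83 between the embryonic genes Hbb-y and Hba-x, 0.87 between Hbb-bs and Hbb-bt and 0.88 between Hba-a1 and Hbb-bs. Between the summed embryonic and the summed adult beta genes it was 0.41. In the 6 E10 libraries r between Hbb-y and Hba-x was 0.48 to 0.94, and between embryonic and adult beta sums 0.23 to 0.74. Between Hba-a1 and Hbb-y, r was 0.47 to 0.95 at E10 and 0.60 at E12. Moran's I, which measures how alike neighbouring pixels are, was 0.71 and 0.75 for Hbb-bs and Hbb-bt at E12 against 0.03 to 0.35 at E10. Both genes were much sparser at E10. Hbb-bs had a count in 7.93% to 74.9% of tissue pixels there and Hbb-bt in 17.1% to 89.8%, against 98.9% and 98.8% at E12. The part of this sparseness in Moran's I and in r was not tested.

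Among the 2783 genes with a count in 5% or more of each library's tissue pixels, the same 5 had the highest mean r with the embryonic sum and with the adult sum over the 11 libraries. They were Car2, a carbonic anhydrase (0.37 and 0.39), Slc4a1, the band 3 anion exchanger of the red cell membrane (0.36 and 0.37), the metallothionein Mt1 (0.26 and 0.29), Slc25a37, which carries iron into mitochondria (0.24 and 0.28), and the ferritin chain Fth1 (0.23 and 0.24). All are weak correlations in sparse counts.

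In the 4 E10 sections with antibody counts, the antibody to LY76 (TER-119, a marker of erythroid cells) was only slightly higher in globin-rich pixels, by 1.05 to 1.27 times, with r of -0.01 to 0.10 across pixels. It ranked 5 to 9 of 22 antibodies by r. The antibody to the panendothelial cell antigen ranked 1 of 22 in all 4 sections, with r of 0.30 to 0.38. That to CD41, found on megakaryocytes and early blood cells, ranked 2 to 6 with r of 0.13 to 0.32.

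Genes of the wider red cell programme were compared in the same fits. Of 11 red cell genes other than globins, 10 were tested and only Epb42, a membrane protein, was called between E11 and E10, as lower (3.59-fold, edgeR adjusted p = 0.0392), beside 3.60% of all 18233 genes called and 1.67% called as lower. The list's median was -0.56 beside 0.05 over all genes. In liver-gene-rich pixels 3 of 9 were called as higher, Gata1, Klf1 and Epor, the receptor for erythropoietin (3.60-fold, edgeR adjusted p = 0.00202), and none as lower, beside 10.8% of all 11536 genes called as higher.

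Of 14 regulators linked to globin switching, none was called in either stage comparison. In liver-gene-rich pixels 8 of 14 were called as higher and none as lower, beside 10.8% of all 11536 genes called as higher. They were Gata1 (12.4-fold, edgeR adjusted p = 2.41e-06), Klf1 (10.9-fold), Nfe2 (8.34-fold), Myb (6.52-fold), Tal1 (5.81-fold), Lmo2 (4.91-fold), Zbtb7a (2.01-fold) and Lin28b (1.93-fold), with adjusted p up to 0.0317. The median of the list was 0.98 on the log2 scale beside 0.002 over all genes. Bcl11a (log2 -0.05, edgeR adjusted p = 0.854) and Sox6 (log2 -0.99, edgeR adjusted p = 0.174), which repress embryonic globins, did not pass. Gata1 and Klf1 stand in both lists.

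The files held 5 further columns of the globin family. Hbb-bh0, annotated as a pseudogene between Hbb-y and Hbb-bh1, had 0 to 3.33 CPM at E10, 39.3, 30.6, 16.8 and 16.02 CPM at E11 and 16.6 CPM at E12. All later libraries were above all E10 libraries, and the column was called at 10 µm (12.4-fold, edgeR adjusted p = 0.000928) and at E12 against E10 at 50 µm (13.8-fold, edgeR adjusted p = 0.00122). E10 25 µm had no count, which allows up to 1.92 CPM. The pseudogene Hba-ps4, on chromosome 17, had 0.376 to 2.17 CPM at E10, 15.2 and 28.4 CPM at E11 with 10 µm pixels, 1.58 and 0.651 CPM with 25 µm pixels and 3.38 CPM at E12, and was called at 10 µm (11.0-fold, edgeR adjusted p = 0.0164). It was not called at 25 µm (log2 -0.62, edgeR adjusted p = 0.838) or over both widths (edgeR adjusted p = 0.212). Within E11 it was called between 10 and 25 µm (18.6-fold higher at 10 µm, edgeR adjusted p = 0.0114), beside 2.07% of all genes. Hbq1b, a theta-type alpha gene, had 0.376 to 2.20 CPM at E10, 0.395 to 2.19 CPM at E11 and 6.0 CPM at E12 and was not called. Hbq1a had at most 8 counts and Hbb-bh2 at most 2 in any library.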

How the data were processed

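The authors deposited, for each transcript library, a table of counts per gene symbol and pixel with no normalization, and for 4 libraries counts per antibody and pixel. The submitters' processing notes name CASAVA 1.8.2 and the human build GRCh38 without saying what each was used for, although the columns are mouse gene symbols. The aligner, the annotation, the use of strand and the collapsing of duplicate molecules are not given in the sources used here. Per the labels' protocols, sections were under 7 µm thick, with a Nextera XT kit for library construction.

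A tissue pixel had a total of at least 0.1 of the 95th percentile of its library. Counts were summed over tissue pixels (1563489 to 11998765 per library), and pixels were never used as replicates. The 6 pairs of libraries within groups differed by 24.6 to 70.0 times the sampling variance, so none was a copy. Summed counts were fitted with edgeR 4.0.16 (R 4.3.3, TMM factors, default filter on low counts, robust quasi-likelihood, 6 group means over 11 libraries, 5 residual degrees of freedom). Where a group held 1 library it was assumed to vary like the others. The code was tested on simulated data. Liver-gene-rich and other pixels were summed separately, with library as a term. Ratios are log2 of counts with 0.5 added to each side, tested by exact permutation over libraries in Python 3.11.15 with scipy 1.17.1. A library entered the liver comparison with at least 20 liver-gene-rich pixels. Marker lists held 6 to 14 genes, except the 3 liver genes. Ahsp belongs to the red cell list and was not taken out of its summed counts, and no result for Ahsp alone is reported here. A result of the red cell list at E12 is not reported here. Besides the 7 members, the genes named are the other globin family columns, the called genes of the red cell and switch regulator lists, and the 5 genes with the highest mean r across pixels with the embryonic and the adult globin sum. The members and lists were chosen with earlier results of these data known. Alternatives covered normalization, filters, tissue and liver thresholds, the liver list and window, the share of list-rich pixels, DESeq2 1.42.0 and leaving out each library.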

Additional observations from a re-analysis of the deposited data

Results flagged for a closer look

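Within the libraries of a stage, and within the 4 libraries with liver-gene-rich pixels, the globin levels, the ratios and the liver differences were searched for a single library far from the rest (Dixon's criterion), in 28 groups of 4 or 6 values. Chance flags about 1 in 20 groups, and 2 of 28 met the criterion. Hbb-y in E11 25 µm replicate 2 was 6244 CPM, below the 7978 to 8196 CPM of the other E11 libraries. The difference in the log2 adult to embryonic alpha ratio between liver-gene-rich and other pixels was 1.71 at E12, against -0.20 to 0.06 in the 3 E11 libraries.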

How the results depend on the processing

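Section, region and stage cannot be told apart, E12 is 1 library, and no depth of reads makes up for this. The 2 calls between E11 and E10 (Hbb-bh1 and Hbb-bt) fell to 0 with relative log expression factors and to 1 with all pixels in the file, and to between 0 and 1 over the fits without 1 library. Leaving out E10 25 µm was not run for that comparison, as no E10 library of that width then remains, nor was leaving out E12 for the E12 comparison. At E12 the count ran from 4 to 5. In liver-gene-rich pixels 0 to 3 globins were called when 1 library was left out, with 3 without E11 10 µm replicate 2. Deviations of the same-numbered E11 samples from the mean of their pixel width correlated at 0.0756. With 2 libraries per width the deviations mirror each other, so this is 1 value. It cannot decide whether the replicate numbers pair the libraries. With a replicate block 0 globins were called between 10 and 25 µm at E11, and 235 genes in place of 378, from 14091 tested. Between stages no pairing was used, since no label pairs those libraries, while liver-gene-rich and list-rich pixels were compared within each library.

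Of the values of the ratio tests and the counts of globins called, 315 kept their direction and their side of the threshold (counts within 1.5 times) under the alternatives tried. Another 19 turned sign, 13 counts moved by over 1.5 times and 2 values came to pass the threshold. Some of the 315 could not have changed side. The liver ratio tests over 4 libraries cannot give a p below 0.125. The ratio tests of E11 against E10 without 1 library cannot reach 0.05 either. For these tests, keeping the side of the threshold says nothing about stability. The causes of the following changes were not tested. Mean log2 differences between liver-gene-rich and other pixels turned sign where they were near 0. Alpha to beta was 0.0140 and 0.0044 with liver thresholds of 10 and 50 per 10000, 0.0027 with the pixel alone and 0.0126 with pixels weighted equally, and -0.0958 to 0.0420 with 1 library left out. Hbb-y to Hbb-bh1 was 0.0067 with the pixel alone and -0.0472 to 0.0347 with 1 library left out. Adult to embryonic alpha ran from -0.0580 (without E12) to 0.576. For list-rich pixels, the log2 beta ratio of mesenchyme was 0.0473 with 5% of pixels, 0.104 without liver-gene-rich pixels and -0.121 to 0.143 with 1 library left out. That of heart muscle was 0.00017 and that of neuron 0.0527 without liver-gene-rich pixels, and -0.212 to 0.0118 and -0.125 to 0.0113 with 1 library left out. Epithelium passed with 20% of pixels (0.218, exact permutation adjusted p = 0.00684), while its globin level turned to 0.0015. The globin level of mesenchyme was 0.224 to 0.484 with 1 library left out and passed without E12. Log2 changes from E10 to E11 with 1 library left out were -0.0346 to 0.340 for Hba-a1, -0.185 to 0.220 for Hba-a2 and -0.206 to 0.0858 for Hbb-y. Hba-a2 was -0.0967 at the higher tissue threshold, and Hba-x in liver-gene-rich pixels -0.0098 at the threshold of 50.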
